A study of Sus scrofa with 22 samples.

Results

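Nerves enter the foliate papilla of the tongue and supply its taste buds. Levels of 8 genes of nerve, Schwann cells and neuropeptides were followed in pig foliate papillae and in organoids grown from them. The genes, picked by name with results of these libraries already known, were SOX10, S100B, PMP22, L1CAM, CHL1, VIP, GAL and NGFR, which are 8 of the 27376 genes counted. Since the choice rests on these libraries, the values of the 8 genes are a description and carry no test. The papillae had all 8 transcripts. In organoid libraries SOX10, VIP and GAL were at or near 0 counts, S100B, L1CAM and PMP22 stayed below 10 CPM (counts scaled to a common library depth), CHL1 reached 16.9 CPM, and NGFR stood above every papilla in all organoid groups but CQ, where it was below most papillae.

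RNA was sequenced from 22 libraries in 6 groups. Foliate papillae of 5 pigs stood beside passage 1 organoids of the same 5 pigs, and the labels pair them by pig number. The labels call the organoids a foliate cell line and name no clone. As recorded for passage 1 and for the FGF10 experiment described next, the organoid medium LPM held FGF10 at 100 ng/ml and forskolin at 1 µM. It also held, per the labels' protocols, noggin, Wnt3a, R-spondin-2, SHH, EGF, FGF2, insulin, prostaglandin E2, the inhibitors CHIR99021, SB202190, A-83-01 and Y-27632, nicotinamide and N-acetyl-cysteine. In a second experiment 3 libraries in LPM were set against 3 in LPM lacking FGF10, and in a further experiment 3 libraries in LPM were set against 3 kept in LPM from day 0 to day 10 and then in CQ to day 16 or 17. What CQ contains, the meaning of both abbreviations, the pigs behind these last experiments, and the day on which their LPM libraries were taken are not given in the sources used here. Culture age can therefore not be told apart from CQ. No FGF10 or forskolin dose is recorded here for LPM of the CQ experiment.

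As background, peripheral nerve is a bundle of axons wrapped by Schwann cells, glia that derive from the neural crest and in part lay down myelin. SOX10 is the transcription factor that keeps cells in that lineage, S100B is a calcium-binding protein used to mark Schwann cells, and PMP22 is a protein of compact myelin. L1CAM and its close relative CHL1 are adhesion molecules on axons and glia. VIP and galanin (GAL) are peptides released by autonomic neurons, among them those that drive salivary glands. NGFR is the p75 receptor shared by the neurotrophins. It sits on neurons and immature Schwann cells, and it also marks basal cells of stratified epithelia, the layer from which tongue organoids can be grown.

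Library totals were 17.04 to 20.71 M counts in papillae, 19.62 to 27.77 M in organoids kept in LPM or in LPM lacking FGF10, and 14.67 to 16.0 M in CQ. The CQ libraries had fewer detected genes and, at low counts, the widest spread of the 6 groups. The floor for a gene at 0 was set at 38.03 counts over the CQ group and at 3 counts over each other group. Where a gene averaged 10 to 30 counts, the median ratio of variance to mean between libraries was 12.68 in CQ, 5.78 in the passage 1 organoids of the 5 pigs, 3.53 in their papillae and 1.23 to 1.95 in the other groups. Bounds set by the 3-count floor therefore cover counting error only, not the spread between pigs. Papillae and organoids were extracted with different RNA kits, which cannot be told apart from the contrast. Papillae also carried marker genes of cells that organoids lacked. The summed level of 10 gland markers was 61320 to 291300 CPM in papillae and 38.5 to 411 CPM in passage 1 organoids, with 9 of 9 tested lower, that of 6 fibroblast markers was 1968 to 7514 CPM against 0.826 to 3.21, with 6 of 6 lower, and that of 6 skeletal muscle markers was 298 to 8727 CPM against 0.136 to 0.426, with 6 of 6 lower. Endothelial markers summed to 371 to 572 CPM against 22.3 to 117 CPM (5 of 6 lower), and melanocyte markers to 8.557 to 12.98 CPM against 9.27 to 13.7 CPM (1 of 3 higher). MYH2 and DES, which define muscle, were at 0 counts in passage 1 organoids. Basal epithelial markers summed to 10810 to 14110 CPM in papillae and 3824 to 7715 CPM in passage 1 organoids (3 higher and 3 lower of 6), and taste cell markers to 129 to 284 CPM against 36.8 to 56.6 (6 of 9 lower). These counts are calls by edgeR at an adjusted p under 0.05, where 35.1% of all genes tested were lower and 32.4% higher. The part of these other cells in the differences below was not tested. In bulk RNA, fewer cells of a type and less RNA per cell cannot be told apart.

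In the deposited annotation, which uses Sscrofa11.1 positions, VIP lies at chr1:13611786-13620250, GAL at chr2:4351113-4357167, SOX10 at chr5:9890439-9901746, NGFR at chr12:25699410-25720355, PMP22 at chr12:58679773-58734195, CHL1 at chr13:56804309-57034191 and L1CAM at chrX:124595649-124618292. S100B lies on a scaffold that is not placed on a chromosome. Exons of CHL1 overlap those of LOC110256276, a long noncoding RNA on the other strand. Strand was ignored in counting, so reads of these 2 genes cannot be told apart.

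Divided by counted exon length, the papilla order of levels was SOX10 at 43.5 CPM per kb, PMP22 at 33.6, VIP at 31.1, GAL at 22.7, S100B at 17.2, NGFR at 14.9, L1CAM at 13.7 and CHL1 at 8.17 CPM per kb. NGFR, sixth in papillae, came first in each of the 5 organoid groups, at 67.01 CPM per kb in passage 1, 236 and 248 in the 2 groups of the FGF10 experiment, 181 in LPM of the CQ experiment and 9.06 in CQ.

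SOX10, the lineage factor, stood at 128, 105, 102, 157 and 168 CPM in the papillae of pigs 1 to 5 (mean 132 ± 30.0, SD, n = 5). The passage 1 organoids of the same pigs had 6, 0, 1, 3 and 3 counts in all, a mean of 0.102 ± 0.0965 CPM (SD, n = 5). The groups were far apart, and the fitted log2 difference, organoid minus papilla, was -10.20 (SE 0.41). LPM libraries of the FGF10 experiment had 1, 3 and 2 counts, those lacking FGF10 had 0, 6 and 0, LPM libraries of the CQ experiment had 1, 0 and 0, and CQ libraries had none. In 17 organoid libraries SOX10 thus gathered 26 counts. For CQ the 0 allows up to 0.809 CPM.

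S100B, the calcium-binding glial marker, was at 30.7, 56.8, 51.3, 32.6 and 29.6 CPM in papillae (mean 40.2 ± 12.9, SD, n = 5). In passage 1 organoids it was at 0.426, 0.435, 1.49, 0.434 and 0.507 CPM, a log2 difference of -5.89 (SE 0.42) with no overlap. Unlike SOX10, S100B had counts in 17 of 17 organoid libraries. It stood at 1.03, 1.06 and 0.828 CPM in LPM and 1.52, 1.44 and 1.42 CPM in LPM lacking FGF10. In the CQ experiment it was at 1.16, 2.31 and 2.21 CPM in LPM and 1.74, 0.856 and 1.84 CPM in CQ, where the groups overlapped.

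PMP22, the myelin protein, was at 89.8, 110.1, 100.8, 82.3 and 67.8 CPM in papillae (mean 90.2 ± 16.4, SD, n = 5) and at 6.18, 1.30, 8.87, 1.99 and 2.30 CPM in passage 1 organoids. The log2 difference was -4.41 (SE 0.50). Among the organoids, those of pigs 3 and 1 were highest, still far below any papilla. It then stood at 2.47, 1.32 and 1.17 CPM in LPM and 1.87, 2.28 and 1.47 CPM in LPM lacking FGF10. In the CQ experiment only 3, 4 and 3 counts were found in LPM and 14, 0 and 0 in CQ, under the floor.

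L1CAM, the axon and glia adhesion molecule, was at 37.8, 121, 89.0, 51.6 and 41.3 CPM in papillae (mean 68.2 ± 35.9, SD, n = 5). Passage 1 organoids had 1.07, 0.217, 2.17, 0.434 and 0.676 CPM, a log2 difference of -6.19 (SE 0.59). As for S100B and PMP22, the organoids of pig 3 were the highest. Levels of 0.947, 1.01 and 1.51 CPM in LPM and 0.860, 1.23 and 0.965 CPM in LPM lacking FGF10 overlapped. In LPM of the CQ experiment 8 counts were found in 1 library and none in the other 2, and CQ had none.

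The relative CHL1 was the steadiest of the 8 genes in papillae, at 78.7, 78.1, 88.3, 73.5 and 96.5 CPM (mean 83.0 ± 9.26, SD, n = 5). In passage 1 organoids it stood at 3.79, 1.78, 3.67, 1.52 and 9.29 CPM (mean 4.01 ± 3.13, SD, n = 5), a log2 difference of -4.31 (SE 0.46), or -4.90 without the organoids of pig 5. Every passage 1 library had the transcript, that of pig 5 the most. In LPM of the FGF10 experiment the level was 9.96, 9.98 and 9.11 CPM, and in LPM lacking FGF10 it was 16.9, 16.5 and 16.8 CPM. LPM of the CQ experiment held less, at 1.53, 1.81 and 1.70 CPM. CQ libraries had 17, 5 and 11 counts, together under the floor of that group. CHL1 thus had counts in 17 of 17 organoid libraries, with the reservations on the antisense RNA and on the floor in CQ.

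VIP, which in autonomic nerves stands with acetylcholine, was at 14.7, 60.01, 21.1, 22.8 and 48.9 CPM in papillae (mean 33.5 ± 19.8, SD, n = 5). Against 2727 counts over the 5 papillae there was 1 count over the 5 passage 1 libraries, in pig 3, and none in the other 12 organoid libraries. The ratio of depth-scaled sums was 4145 (exact 95% interval 743 to 163800, counting error only). GAL was at 2.35, 28.5, 15.7, 12.96 and 28.4 CPM in papillae (mean 17.6 ± 11.09, SD, n = 5), and 1435 papilla counts stood against 0 in passage 1 organoids, at least 727-fold lower. Its only organoid counts were 4 in 1 LPM library of the FGF10 experiment. Neither peptide was detectable in CQ, where 0 counts allow up to 0.809 CPM.

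NGFR, the neurotrophin receptor, ran the other way. Papillae had 32.5, 84.3, 57.2, 41.3 and 41.9 CPM (mean 51.5 ± 20.4, SD, n = 5), and the organoids of the same pigs 268, 340.4, 219, 132 and 196 CPM (mean 231 ± 78.4, SD, n = 5). The organoids were higher in 5 of 5 pigs, between 3.18 and 8.24 times their own papilla, and the log2 difference was 2.21 (SE 0.30). LPM of the FGF10 experiment reached 819, 804 and 818 CPM and LPM lacking FGF10 849, 819 and 895 CPM. LPM of the CQ experiment was at 646, 618 and 606 CPM, while CQ libraries were at 41.3, 22.99 and 29.4 CPM, within the range of papillae or below it. From the highest mean to the lowest the order of groups was LPM lacking FGF10, LPM of the FGF10 experiment, LPM of the CQ experiment, passage 1, papillae and CQ. Papillae and CQ overlapped in range. Levels from different experiments are set side by side as a description only.

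**Figure D1:**
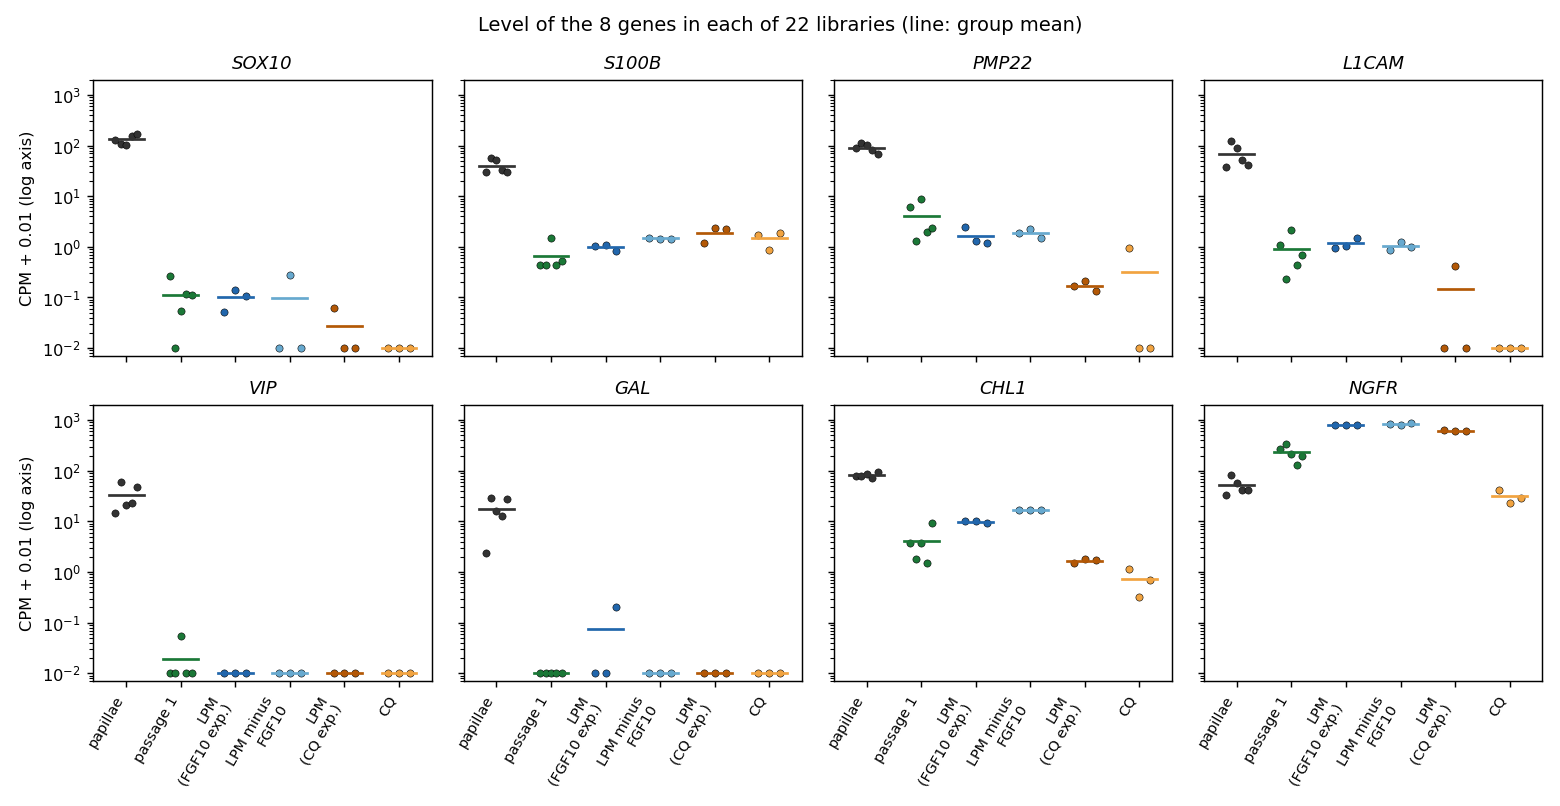
Level of each of the 8 genes in 22 libraries, as CPM plus 0.01 on a log axis, by group (papillae, passage 1 organoids, both groups of the FGF10 experiment and both of the CQ experiment). Points are libraries and lines group means. SOX10, VIP and GAL drop to the bottom of the axis in organoids, S100B, PMP22 and L1CAM stay at low levels, CHL1 keeps up to 16.9 CPM, and NGFR stands above papillae everywhere but in CQ.

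Papillae and passage 1 organoids did not overlap for 8 of the 8 genes, 7 lower and 1 higher in organoids. Across all 16311 genes tested, 29.6% were without overlap and lower, and 24.5% without overlap and higher, so groups without overlap were common in this comparison. Since the genes were chosen on such values, nothing is read from the count. The papilla exceeded the organoids of the same pig in 5 of 5 pigs for the 7 lower genes.

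The papillae differed among themselves, and not in the same order for each gene. S100B, PMP22, L1CAM and NGFR were all highest in pig 2 and second highest in pig 3. VIP and GAL were highest in pigs 2 and 5 and lowest in pig 1. SCG2, a granin of secretory vesicles (19.8, 44.9, 17.9, 11.3 and 28.3 CPM), also had pigs 2 and 5 in front. Of the axon and neuron list, 22 genes had a papilla mean of 1 CPM or more, and 19 of them were highest in pig 2. Pigs 2 and 5 were the highest 2 for 13 of the 22, among them NOS1, for nitric oxide synthase (20.2, 47.0, 16.7, 14.5 and 24.4 CPM). Pigs 1 and 2 were the highest 2 for 6, among them the neurofilament gene NEFM, which was highest in pig 1. NOS1 and NEFM were named here after their values were seen.

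SOX10 followed neither order. It was highest in pigs 5 and 4 and lowest in pigs 3 and 2. The summed gland markers were 154300, 61320, 84660, 160300 and 291300 CPM in pigs 1 to 5, with pigs 5 and 4 also at the top and pigs 2 and 3 at the bottom. SOX8, a close relative of SOX10, stood at 54.3, 46.8, 56.6, 84.9 and 96.4 CPM, and the gap-junction gene GJB1, made by Schwann cells and by secretory cells, at 75.0, 17.5, 17.4, 34.0 and 137 CPM. SOX8 and GJB1 were named after their values were seen. SOX10 is known as background to be made in salivary gland cells as well as in Schwann cells. The part of gland in the SOX10 level was not tested. CHL1 varied least and had its highest value in pig 5 and the next in pig 3.

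**Figure D2:**
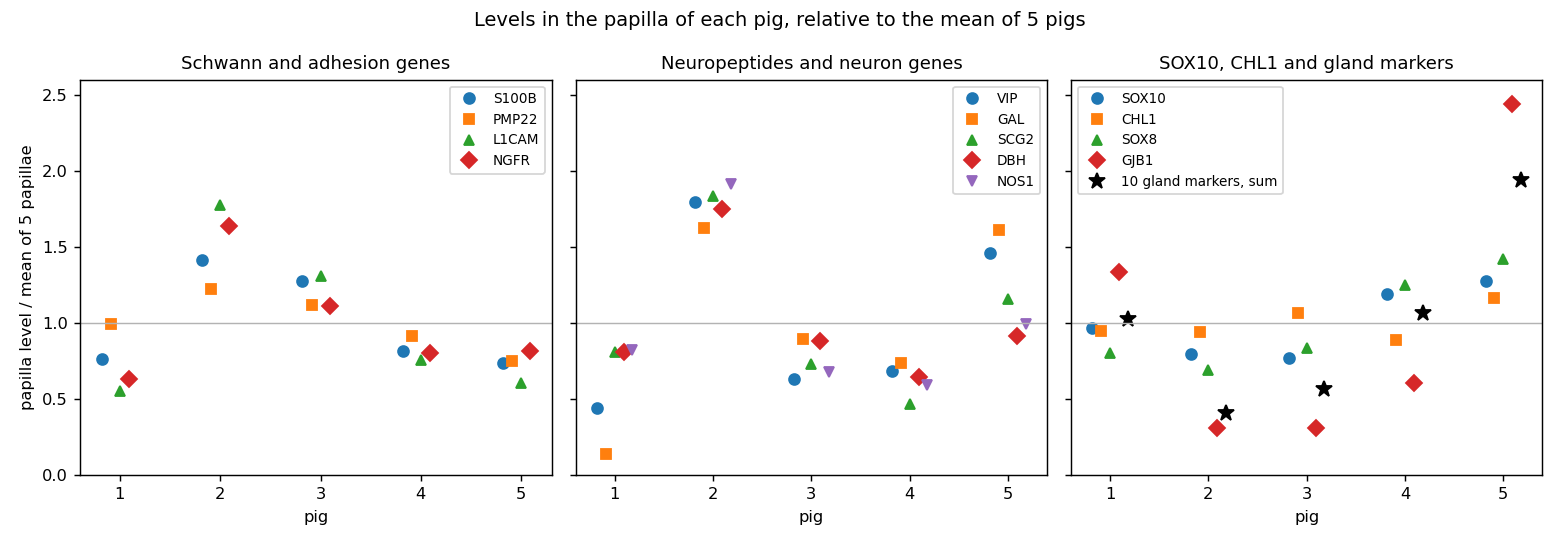
Levels in the papilla of each of 5 pigs, divided by the mean of the 5 papillae (vertical axis, no unit; small sideways shifts only separate the symbols). S100B, PMP22, L1CAM and NGFR peak in pig 2, VIP, GAL, SCG2, DBH and NOS1 are highest in pig 2 with pig 5 next, and SOX10, CHL1, SOX8, GJB1 and the summed gland markers peak in pig 5.

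Genes outside the 8, from 8 textbook lists of nerve biology, were tested in the same fits. The question of this comparison was how organoids differ from the tissue they came from. Of 143 listed genes 141 were counted and 115 passed the filter on low counts. In passage 1 organoids 76 were lower (66.1%) and 14 higher (12.2%) by edgeR's quasi-likelihood test at an adjusted p under 0.05, where 35.1% of all genes tested were lower and 32.4% higher, 67.5% in all. The median log2 change was -2.55 over the listed genes and -0.01 over all genes. Scaling by library size alone moved the median of all genes to 0.28 and the higher share of all calls from 48.0% to 59.6%, and gave 75 listed genes lower and 17 higher. The lists were set with earlier results known, so their counts are not independent of the choice of the 8 genes.

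Axon and neuron genes were lower in 20 of 23 tested and higher in 0, and 0 were higher at an unadjusted p under 0.05 or by DESeq2 or limma-voom. SCN9A, a sodium channel of sensory axons, was 63.2-fold lower (adjusted p = 3.02e-07). Its exons overlap antisense RNAs. DBH, which makes noradrenaline in sympathetic neurons, had 522 papilla counts against 2 (ratio 397, exact 95% interval 109 to 3285, adjusted p = 5.53e-07 by edgeR). STMN2, a growth-cone protein named after its values were seen, had 0 organoid counts, at least 1053-fold lower. The summed level of the list was 185 to 493 CPM in papillae and 33.7 to 98.6 CPM in organoids.

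Schwann lineage and satellite glia genes were lower in 11 of 13 and higher in 1. NES, an intermediate filament of immature glia, fell 58.0-fold (adjusted p = 8.06e-08), and ZEB2, a factor of Schwann cell differentiation, 297-fold (adjusted p = 1.91e-07). NES was highest in the papilla of pig 3 (51.6 CPM), as were the summed skeletal muscle markers (8727 CPM). The part of muscle in the NES level was not tested. Exons of ZEB2 overlap a gene on the other strand. ERBB3, the neuregulin receptor of Schwann cells and also a receptor of epithelia, rose from 152 ± 25.1 to 315 ± 146 CPM (SD, n = 5 each), 2.14-fold (adjusted p = 0.0087). The summed level of the list, ERBB3 included, overlapped, at 500 to 653 CPM in papillae and 291 to 797 CPM in organoids. Myelin genes were lower in 10 of 17 and higher in 2. POU3F1, a factor of promyelinating Schwann cells, fell 39.1-fold (adjusted p = 2.15e-06). PLLP and CADM4, membrane proteins that epithelia also make, rose 2.30-fold and 1.65-fold (adjusted p = 5.08e-06 and 0.000887). The summed level of the myelin list overlapped, at 557 to 971 CPM in papillae and 665 to 844 CPM in organoids. PLLP shares exon sequence with ARL2BP on the other strand. In the PMP22 family, EMP1 fell 4.35-fold (adjusted p = 0.000307) and TMEM47 7.46-fold (adjusted p = 2.56e-06), whereas EMP2 rose 2.81-fold (adjusted p = 8.52e-06). The family's 5 tested genes gave 4 lower and 1 higher, and it summed to 2064 to 4143 CPM in papillae and 653 to 1399 CPM in organoids.

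Among neuropeptides and granins, 8 of 15 were lower and 3 higher, and the summed level overlapped at 62.6 to 150.0 CPM in papillae and 91.1 to 363 CPM in organoids. SCG2 had 2010 papilla counts against 3 (ratio 1018, exact 95% interval 348 to 4943, adjusted p = 2.48e-07 by edgeR), and SCG3 was 41.8-fold lower (adjusted p = 1.33e-06). ADM, the vasodilator peptide adrenomedullin, which many epithelia secrete, rose from 3.50 ± 0.704 to 148 ± 96.5 CPM (43.6-fold, adjusted p = 1.08e-06), and NMB, neuromedin B, rose 17.9-fold (adjusted p = 0.000548). Of 8 peptide receptors tested, 7 were lower and 1 higher, with a summed level of 104 to 158 CPM in papillae and 9.88 to 28.1 CPM in organoids. VIPR1, a receptor for VIP, was 52.9-fold lower, at 0.526 ± 0.218 CPM against 29.2 ± 8.76 CPM (adjusted p = 1.55e-07), and ADCYAP1R1, the PACAP receptor, 53.8-fold (adjusted p = 5.51e-06). GALR2, a galanin receptor, was 2.00-fold higher (adjusted p = 0.0168, but 0.0572 with pig as a block). The other galanin receptors, named after their values were seen, were lower. GALR3 had 666 papilla counts against 94 and was 10.8-fold lower (adjusted p = 1.17e-05 by edgeR), although its exons overlap GCAT on the same strand. GALR1, with 42 counts against 4, did not pass the filter.

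Genes of the L1 family and its partners were lower in 7 of 15 and higher in 3. NCAM1, the neural cell adhesion molecule, had 1744 papilla counts against 3 (ratio 884, exact 95% interval 302 to 4289, adjusted p = 7.62e-08 by edgeR), and ANK2, the ankyrin that anchors L1CAM, was 292-fold lower (adjusted p = 3.98e-08). Its exons overlap an antisense RNA. ALCAM, an adhesion molecule of neurons and epithelia, was 3.82-fold higher (adjusted p = 2.66e-06) and NRP2, a semaphorin co-receptor, 4.01-fold higher (adjusted p = 3.09e-07). The summed level of the L1 list ran opposite to its count, at 279 to 368 CPM in papillae and 509 to 639 CPM in organoids. Across the 8 lists, 110 of 141 genes had a mean of 1 CPM or more in papillae and 61 in passage 1 organoids. Of these, 57 genes reached it in both, 53 in papillae only and 4 in organoids only.

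**Figure D3:**
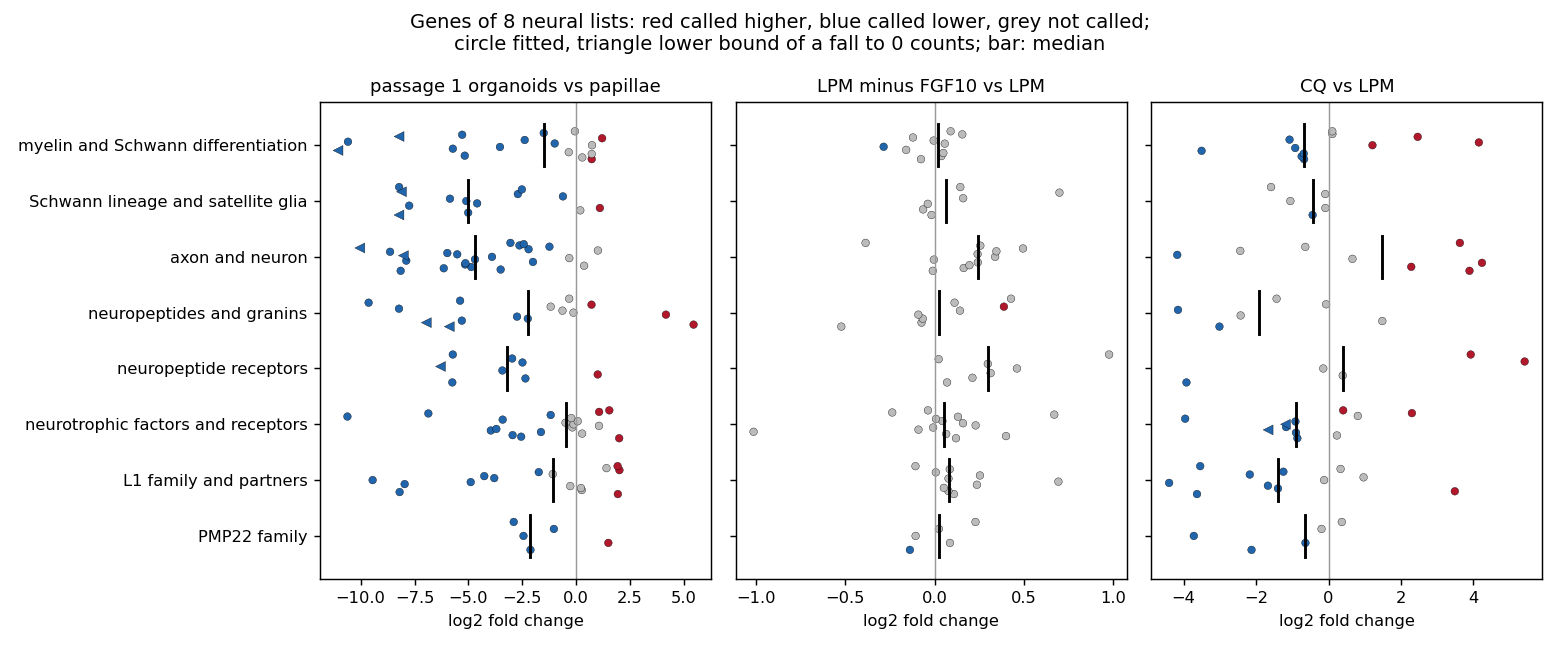
log2 fold change of each tested gene of 8 nerve lists in 3 comparisons (panels; the horizontal scales differ). Red marks genes called higher and blue lower at an adjusted p under 0.05 by edgeR, triangles stand at the lower bound for genes that fell to 0 counts, and bars are list medians. In passage 1 organoids 76 of 115 genes are lower. Without FGF10 3 of 71 are called, and in CQ 28 of 62 are lower and 12 higher.

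NGFR can act alone, with a Trk receptor, or with sortilin (SORT1) as co-receptor for the precursor forms of neurotrophins. SORT1 rose, from 170 ± 37.8 CPM in papillae to 479 ± 154 CPM in passage 1 organoids (2.90-fold, adjusted p = 0.000167). Antisense reads at SORT1 cannot be told apart. NTRK3 had 1784 papilla counts against 1 in organoids (ratio 2712, exact 95% interval 486 to 107200, adjusted p = 1.37e-08 by edgeR). NTRK2, the BDNF receptor, stood at 94.6 ± 15.9 and 78.6 ± 41.7 CPM and was not called (adjusted p = 0.499). NTRK2 and the ligands in the next paragraph were named after their values were seen.

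The ligands named here were scarce. NTF3 stood at 2.81 ± 0.948 CPM in papillae and 1.94 ± 0.976 CPM in passage 1 organoids, and NTF4 at 8.25 ± 0.965 and 8.40 ± 2.84 CPM, neither of them called (adjusted p = 0.249 and 0.82). BDNF, the neurotrophin that taste cells make, was 5.87-fold lower in organoids (adjusted p = 0.00393). In all, 9 of 19 neurotrophic genes were lower and 3 higher, while their summed level, SORT1 included, was 416 to 555 CPM in papillae and 580.3 to 962 CPM in organoids. RET, the receptor for glial cell line-derived factors, fell 116-fold (adjusted p = 6.80e-07), and RTN4R, the Nogo receptor that partners NGFR, rose 2.09-fold (adjusted p = 0.00111).

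**Figure D4:**
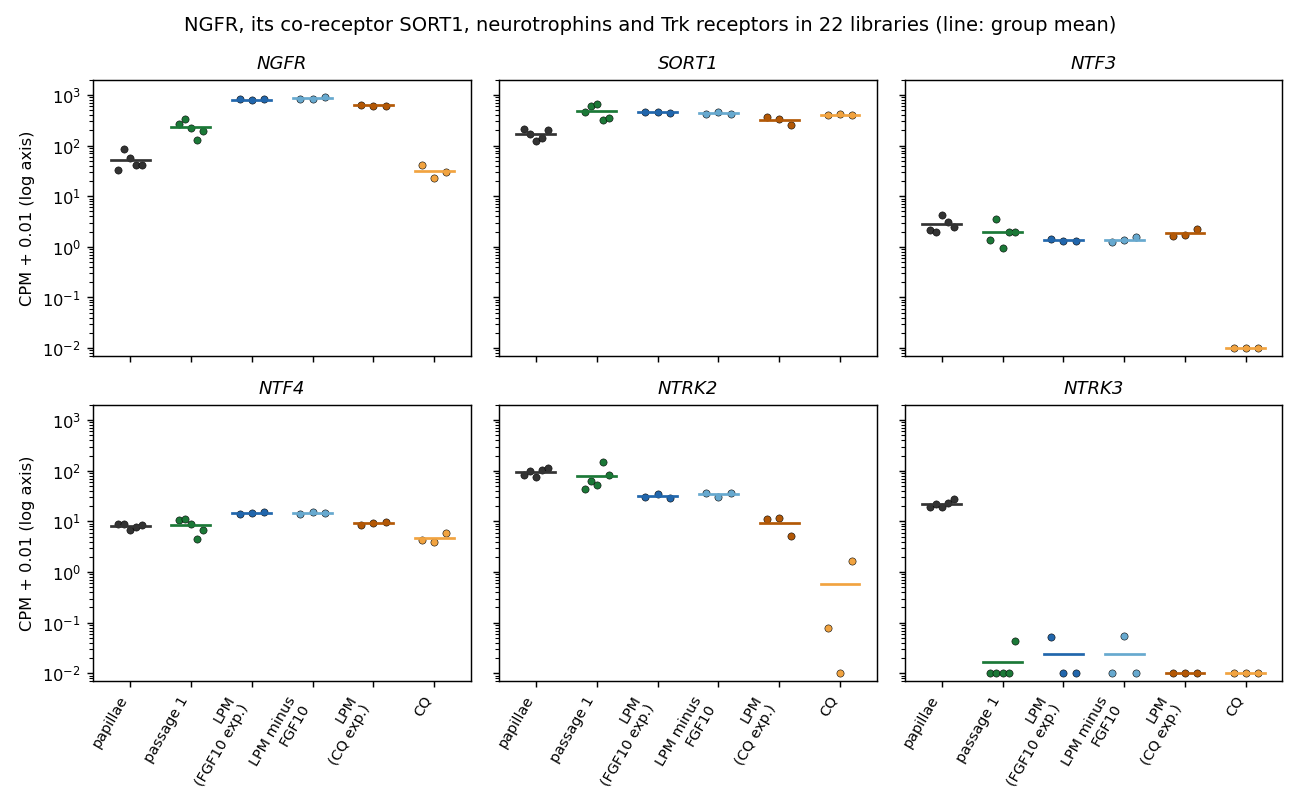
CPM plus 0.01 on a log axis of NGFR, its co-receptor SORT1, 2 neurotrophins and 2 Trk receptors in 22 libraries by group; lines are group means. NGFR and SORT1 stand above papillae in passage 1 organoids, NTRK3 falls to 1 count, and in CQ NTF3 has 0 counts.

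The FGF10 experiment asked what FGF10 in the medium changes. Without it, CHL1 was higher in 3 of 3 libraries, with 16.7 ± 0.214 CPM against 9.68 ± 0.502 CPM (SD, n = 3 each), a difference of 0.79 on the log2 scale (SE 0.09) or 1.73-fold. S100B was at 1.46 ± 0.0505 against 0.971 ± 0.125 CPM, 0.59 higher on the log2 scale (SE 0.27). These 2 of the 5 members that passed the filter did not overlap between the groups, where 8.09% of all 14262 genes tested were without overlap and higher and 8.55% without overlap and lower. NGFR differed by 0.08 (SE 0.04), L1CAM by -0.15 (SE 0.30) and PMP22 by 0.18 (SE 0.27), and their groups overlapped in the scale of the fit. The sign for L1CAM and for PMP22 turned when LPM replicate 3 was left out, to 0.08 and -0.01, and PMP22 reached 0.60 without LPM replicate 1. SOX10, VIP and GAL had too few counts for a comparison.

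Among the listed genes, 1 of 71 tested was higher and 2 were lower without FGF10 by edgeR, where 0.582% of all genes tested were higher and 1.2% lower, 1.78% in all. NPY, a peptide of sympathetic neurons, rose from 21.5 ± 1.89 CPM in LPM by 1.31-fold (adjusted p = 0.00371, but 0.0668 without replicate 1 of the group lacking FGF10). MAL, a raft protein of myelin and of epithelia, fell 1.22-fold (adjusted p = 2.39e-05), and EMP1 fell 1.10-fold (adjusted p = 0.0454), a call that 7 of its 12 alternatives ended. At an unadjusted p under 0.05, 12 were higher and 7 lower. The most abundant genes of lists with no call were SORT1 (1.03-fold lower), ALCAM (1.08-fold higher), ERBB2 and MAP2, none called. None of the axon, Schwann lineage, receptor, neurotrophic or L1 genes was called by edgeR, DESeq2 or limma-voom, while 3, 1, 1, 4 and 3 of them had an unadjusted p under 0.05 by edgeR.

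The CQ experiment asked how organoids moved to CQ differ from those kept in LPM. NGFR stood at 31.3 ± 9.29 CPM in CQ against 623 ± 20.3 CPM in LPM (SD, n = 3 each), a log2 difference of -4.27 (SE 0.21) or 19.3-fold, with no overlap. CHL1 stood at 0.715 ± 0.417 CPM in CQ against 1.68 ± 0.144 CPM in LPM, a log2 difference of -1.18 (SE 0.73). That value came from 33 counts in CQ and 105 in LPM and ranged from -1.70 without CQ replicate 1 to -0.84 without CQ replicate 2. S100B differed by -0.31 (SE 0.66), with overlap. Of the 8 genes these 3 passed the filter, 2 of them without overlap and lower, where 32.9% of 13827 genes were (28.2% without overlap and higher). NGFR was the only member with CQ counts above the floor and no overlap with LPM.

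Basal epithelial genes were lower in CQ as well, in 5 of 6 tested, where 24.8% of all genes tested were lower. TP63, the factor that defines basal cells, fell 4.89-fold (adjusted p = 3.24e-06) and ITGA6, the basal integrin, 3.09-fold (adjusted p = 1.78e-05). Their summed level, with KRT5 included, was 6188 to 6551 CPM in LPM and 4300.0 to 4572 CPM in CQ. KRT5 itself was 1.15-fold higher and not called (adjusted p = 0.124), and was named after its value was seen. Fibroblast and muscle markers summed to under 2 CPM in every library of the experiment, with COL1A2, DCN and LUM at 0 counts in both groups. Gland markers summed to 10.7 to 11.9 CPM in LPM and 2.14 to 5.97 CPM in CQ. The part of basal cells in the NGFR difference was not tested.

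Of the listed genes, 28 of 62 tested were lower (45.2%) and 12 higher (19.4%) in CQ, where 24.8% of all genes tested were lower and 23.1% higher, 47.9% in all. The higher count ranged from 7 without LPM replicate 2 to 19 without CQ replicate 2. The median was -0.66 over the listed genes and -0.07 over all. NTF3 had 119 counts in LPM and 0 in CQ, at least 2.28-fold lower (adjusted p = 0.00209 by edgeR). NTRK2 went from 562 counts to 27, under the floor (adjusted p = 0.0139 by edgeR) and NTF4 was 1.88-fold lower (adjusted p = 0.0306). NTF3, NTF4 and NTRK2 were named after their values were seen. SORT1 went from 319 ± 53.6 to 409 ± 9.52 CPM, 1.32-fold higher (adjusted p = 0.0314, and between 0.0692 and 0.095 in 5 alternatives that ended the call). RTN4R rose 4.93-fold (adjusted p = 4.82e-06), and MAGED1, an adaptor that binds NGFR, fell 1.86-fold (adjusted p = 0.000361). In all, 7 of 11 neurotrophic genes were lower and 2 higher.

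L1 partners were mostly lower in CQ. ALCAM fell from 300.4 ± 26.4 to 23.4 ± 4.80 CPM (12.4-fold, adjusted p = 8.18e-07), and SEMA3C, a secreted semaphorin, 11.7-fold (adjusted p = 7.08e-07). The list gave 7 lower and 1 higher of 11. ANK2 was the higher gene (adjusted p = 0.0247, and between 0.0759 and 0.134 in 5 alternatives). EMP1 fell 4.36-fold (adjusted p = 1.54e-06) and EMP2 1.56-fold (adjusted p = 0.00174) among 3 of 5 lower genes of the PMP22 family. MAL and PLLP fell 1.89-fold and 2.11-fold (adjusted p = 0.000446 and 0.000544) among 6 of 11 lower myelin genes, while MBP rose 2.32-fold (adjusted p = 0.00556) among 3 higher ones. ERBB2 was 1.36-fold lower (adjusted p = 0.0161), the only call by edgeR in 5 Schwann lineage genes tested. DESeq2 and limma-voom each called 2 lower. The ERBB2 call ended without CQ replicate 3 or LPM replicate 2.

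Some genes of the neuron list rose in CQ. SOX10, VIP and GAL had 0 counts in CQ, but in LPM of that experiment SOX10 had only 1 count and VIP and GAL 0. Of 8 axon and neuron genes tested 4 were higher and 1 lower by edgeR. DESeq2, limma-voom and the replicate block each gave 2 lower. MAP2, a microtubule protein, rose from 19.1 ± 4.28 to 90.0 ± 6.25 CPM (4.87-fold, adjusted p = 1.65e-05), and NEFM, a neurofilament, from 0.951 ± 0.552 to 17.6 ± 3.72 CPM (18.8-fold, adjusted p = 0.000107). SNAP25, a vesicle fusion protein, went from 118, 153 and 165 counts in LPM to 9, 0 and 8 in CQ, under the floor (adjusted p = 0.00295 by edgeR). VIPR1 rose from 0.377 ± 0.226 to 5.59 ± 2.37 CPM (15.2-fold, adjusted p = 0.00115), and TACR1, the substance P receptor, went from 4 to 134 counts (adjusted p = 0.00977 by edgeR, but 0.0524 without LPM replicate 2). STMN2 had 18 counts in CQ, under the floor, and SLC18A3 and DBH had none. In LPM of that experiment STMN2, SLC18A3 and DBH also had 0 counts. ELAVL3 went from 4, 8 and 10 counts in LPM to 43, 116 and 83 in CQ. UCHL1 went from 7, 11 and 11 counts to 117, 42 and 101. SYN1, of the same list, went the other way, from 88, 165 and 177 counts to 8, 0 and 49. Its exons overlap a gene on the other strand. STMN2, SLC18A3, DBH, ELAVL3, UCHL1 and SYN1 were named after their values were seen. ADM fell 8.07-fold (adjusted p = 1.06e-06), among 2 lower of 6 tested peptide genes by edgeR. DESeq2 and limma-voom each called 3 lower, and 3 were lower at an unadjusted p under 0.05 by edgeR. None of the 6 was higher by edgeR, DESeq2 or limma-voom, with 0 higher at an unadjusted p under 0.05 by edgeR and 1 by DESeq2.

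Profiles of the 8 genes were compared over the 6 group means of log2(CPM + 0.5), each centred on its own average. NGFR stood apart from the rest, with a root mean square difference of 2.77 to CHL1 and 4.24 to SOX10. The other genes differed from each other by 0.38 (S100B and GAL) to 1.83 (SOX10 and CHL1). The added 0.5 compresses levels near 0. S100B had counts in 17 of 17 organoid libraries and GAL in 1. Among 16577 other genes, those most like NGFR were CD5L (0.20), ABCC4, an exporter of cyclic nucleotides (0.30), and CDKN1C, a cell cycle inhibitor (0.36). SOX10 was most like SPARCL1 (0.09), ADH1C (0.09) and LOC100736878 (0.10), and CHL1 most like LDLRAD2 (0.34), LOC100525572 (0.36) and FMOD (0.38). L1CAM lay near SMOC2, CD34 and SERPING1, VIP near CHRDL1, CADM3 and C1QA, GAL near MFAP2, PLD4 and KCNA5, PMP22 near ANXA6, C4A and CRABP2, and S100B near WIPF1, EFCC1 and LOC110256001. Likeness over 6 groups from 3 experiments is a description.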

How the data were processed

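The 8 genes and all gene lists were chosen with earlier results of these data known. Each deposited file holds whole-number counts per gene, which the authors made and did not normalize, per the file headers with featureCounts 2.0.3 (16 libraries) or 2.0.6 (6 libraries of the CQ experiment). Strand was ignored, per the file headers. The submitters' processing notes name STAR 2.7.10b, FastQC 0.11.9, MultiQC 1.14 and DESeq2. In the CQ experiment an entry without a gene name, 0.326 to 0.477% of counts, was left out.

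For each comparison the counts of its 2 groups entered edgeR's quasi-likelihood test (edgeR 4.0.16, R 4.3.3), after filterByExpr and TMM. All genes that passed shared a Benjamini-Hochberg adjustment. Folds, standard errors and p-values come from that fit, and standard errors were taken as the change over the root of F. Levels are CPM with 1 TMM scaling over 22 libraries on genes of both annotations. The CQ floor, set after the data were seen, is 3 counts times 12.68, the median ratio of variance to mean across CQ libraries where a gene averaged 10 to 30 counts. Intervals and the 3-count floor cover counting error only. Named were all 8 genes and, per list and comparison, at most 2 called genes higher and 2 lower, ranked by p, or else the gene with most counts. Genes named outside this rule are marked in the text, and a few genes of the lists are not reported here by name. The lists of other cells were gland, melanocyte, fibroblast, endothelium, skeletal muscle, basal epithelium and taste cells.

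Pig numbers pair papilla and organoids, since both came from the same animal. Deviations of same-numbered libraries correlated by 0.036 to 0.11. Nothing says that the 3 libraries of a group in the other experiments came from separate cultures or animals beyond the word replicate or sample, so their p-values measure only the spread between these libraries. Alternatives were DESeq2 1.42.0, limma 3.58.1 voom, library size alone, no filter, at least 10 counts, the replicate block, leaving out each library and, added after seeing the data, CQ counts divided by 12.68. The script was tested on simulated data.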

Additional observations from a re-analysis of the deposited data

Results flagged for a closer look

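Of 90 sets of 5 libraries tested, 5 had a library far from the other 4, and chance gives about 1 in 20. S100B stood at 1.49 CPM in the passage 1 organoids of pig 3 and at 0.426 to 0.507 CPM in the other 4. ADM stood at 316 CPM in the passage 1 organoids of pig 5 and at 72.9 to 127 CPM in the others. In papillae, DBH was at 11.06 CPM in pig 2 against 4.07 to 5.77, NES at 51.6 CPM in pig 3 against 32.8 to 35.9, and the muscle gene TNNT3 at 1365 CPM in pig 3 against 63.1 to 360.5.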

How the results depend on the processing

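No called direction turned under any alternative, over 86 tests of named listed genes and their 1227 values under alternatives. Of the 77 that were called, 14 lost the call in at least 1 alternative. Without FGF10, listed genes lower were 2, but 1 with library size alone, and all genes higher and lower were 83 and 171, but 132 and 297 with no filter. With 1 library left out, listed genes without FGF10 ranged from 0 to 1 higher and 1 to 3 lower, and all genes from 37 to 90 higher and 82 to 204 lower. Among all genes, the 37 higher came without replicate 1 of the group lacking FGF10. The 82 lower came without LPM replicate 2. In CQ, listed genes higher ranged from 7 to 19. With the replicate block, listed genes in passage 1 organoids were 13 higher and 75 lower, those without FGF10 1 and 2, and those in CQ 10 and 28. The block ended the GALR2 call and no other named call among pigs. In the other experiments nothing says that the numbers pair the libraries. Correlations there were -0.046 to 0.047 and -0.008 to 0.021, against 0.036 to 0.11 among pigs. With 3 libraries per group these values cannot exclude a pairing. The EMP1 and ANK2 calls ended with the block. Dividing CQ counts by 12.68 gave 11 listed genes higher and 31 lower. SOX10, VIP, GAL, L1CAM, PMP22 and CHL1 were all under the floor in CQ, which rests on the spread between CQ libraries. CHL1 (33 counts) and PMP22 (14 counts) were above the 3 counts used for each other group.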
